A study of Mus musculus with 10 samples.

Results

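Fatty acid entry into mitochondria and ketone body production in the liver were followed through 8 genes after an ethanol binge. The genes were Ppara, Cpt1a, Cpt2, Slc25a20, Slc22a5, Acat1, Bdh1 and Slc16a7, chosen by name as the receptor PPAR alpha, the carnitine shuttle, and the synthesis and transport of ketone bodies. The choice was made with earlier results of these data known. All 8 were on the array and passed the filter on dim probes, among 26124 genes tested. In livers given 5 g/kg ethanol, 3 of the 8 (Ppara, Cpt1a and Bdh1) were lower than in maltose controls, where 1.6% of all genes were called lower and 2.19% higher. In livers given 7 g/kg ethanol, 6 of the 8 were lower (the same 3 with Slc25a20, Acat1 and Slc16a7), where 4.28% of all genes were called lower and 4.63% higher. None of the 8 was called higher at either dose by limma, nor at an unadjusted p under 0.05, where the share of all genes was not computed.

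The samples were livers of male C57BL/6N mice, read on 10 two-colour Agilent arrays with liver in Cy5 and a commercial mixed mouse RNA, the same on every array, in Cy3. The groups were 3 livers after a gavage of maltose with the calories of 5 g/kg ethanol, 4 livers after a gavage of 5 g/kg ethanol and 3 livers after a gavage of 7 g/kg ethanol. The maltose dose was matched to the lower ethanol dose alone, so calories differ between the 7 g/kg group and its controls. The labels give neither the age of the mice nor the time from gavage to collection, they name the tissue of the reference channel as liver too, and they do not say that each array is a separate mouse. The p-values therefore measure the spread between these arrays.

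PPAR alpha is a nuclear receptor activated by fatty acids. It binds DNA as a pair with a retinoid X receptor and is known as the main inducer of fatty acid oxidation genes in the fasting liver. Long-chain fatty acids enter mitochondria as carnitine esters: Slc22a5 (OCTN2) brings carnitine into the cell, Cpt1a on the outer membrane makes the acylcarnitine, Slc25a20 carries it across the inner membrane, and Cpt2 turns it back into acyl-CoA. When acetyl-CoA exceeds what the citric acid cycle takes up, hepatocytes make ketone bodies in mitochondria, starting with acetoacetyl-CoA thiolase (Acat1). Bdh1 reduces acetoacetate to beta-hydroxybutyrate, and monocarboxylate transporters such as Slc16a7 (MCT2) carry these acids across the plasma membrane.

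The RefSeq promoter table (GRCm38.p6) held the start sites of 6 of the 8 genes, with 2 start sites for Bdh1, and gave none for Acat1 and Slc16a7. The 250 bases before the start are shown for Ppara, Cpt1a and Bdh1, the 3 genes that were lower at both doses, and for Slc25a20, which was called lower at 7 g/kg and not at 5 g/kg. Each runs 5′ to 3′ in the direction of the gene, and capitals mark GGGCGG (the GC box bound by Sp1 family factors) and AGGTCA (the element that nuclear receptors bind), or their reverse complements.
Ppara, chr15:85735526-85735775, plus strand: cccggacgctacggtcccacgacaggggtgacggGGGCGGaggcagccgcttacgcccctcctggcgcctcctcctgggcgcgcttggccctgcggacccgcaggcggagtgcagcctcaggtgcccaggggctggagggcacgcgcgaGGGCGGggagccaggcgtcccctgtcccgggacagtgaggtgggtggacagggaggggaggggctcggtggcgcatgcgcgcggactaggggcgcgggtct
Cpt1a, chr19:3323051-3323300, plus strand: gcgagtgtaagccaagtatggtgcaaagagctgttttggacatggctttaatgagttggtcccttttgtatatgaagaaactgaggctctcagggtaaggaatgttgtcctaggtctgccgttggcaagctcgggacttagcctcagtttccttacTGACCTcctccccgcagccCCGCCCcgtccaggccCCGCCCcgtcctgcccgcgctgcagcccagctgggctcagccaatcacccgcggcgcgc
Bdh1, chr16:31422047-31422296, plus strand: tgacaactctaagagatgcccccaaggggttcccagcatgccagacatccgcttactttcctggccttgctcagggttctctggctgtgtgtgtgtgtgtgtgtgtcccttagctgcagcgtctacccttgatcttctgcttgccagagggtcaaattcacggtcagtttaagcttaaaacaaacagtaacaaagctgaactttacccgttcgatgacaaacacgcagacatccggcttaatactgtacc
Slc25a20, chr9:108661886-108662135, plus strand: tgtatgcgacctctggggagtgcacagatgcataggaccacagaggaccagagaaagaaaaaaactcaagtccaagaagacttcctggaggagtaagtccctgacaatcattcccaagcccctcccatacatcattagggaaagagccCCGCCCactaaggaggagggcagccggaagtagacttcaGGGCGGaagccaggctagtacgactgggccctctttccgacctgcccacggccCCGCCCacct
The direct repeat that PPAR alpha binds with a retinoid X receptor, searched on both strands as AGGTCA repeated in the same direction with 1 free base between the copies, was in 0 of the 7 windows and in 0.0335% of 32851 mouse windows of this length. With 1 base of each copy left free, as AGGNCA, it was again in 0 of the 7 windows, against 0.338% of all windows. The single element AGGTCA, which is part of those repeats, was in 1 of the 7 windows, against 14% of all. That match was in the Cpt1a window, 94 bases before the start. GGGCGG was in 5 of the 7 windows, against 32.7% of all, and was absent from both Bdh1 windows. The Ppara window was 76.4% G and C and the Slc22a5 window 73.6%, while the printed Bdh1 window was 49.6%, against a median of 52.4% over all windows. These matches describe letters in 250 bases and say nothing of elements elsewhere, such as introns.

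Median liver signal ranged from 121 to 219 units across arrays and the background near each spot from 21 to 24 units. Between 67.3% and 86.2% of an array's spots were well above background, and all 8 genes were well above it on all 10 arrays. Over all genes, the median log2 change was 0.00 at 5 g/kg and 0.01 at 7 g/kg, and values are given without an offset. The albumin and apolipoprotein A1 genes, which define hepatocytes, gave 751 to 1244 and 740 to 1354 times the median signal of an array. The hepatocyte markers Apob and Fgb gave 175 to 325 and 351 to 1031 times that signal. Ttr, the other hepatocyte marker tested, gave only 6.12 to 15.4 times, with a median of 9.25 over the arrays. That was below the bile duct marker Krt7 (median 38.5) and the exocrine pancreas marker Ctrb1 (median 20.5). The maltose controls took part in both ethanol comparisons, so those comparisons are not independent of each other.

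**Figure D1:**
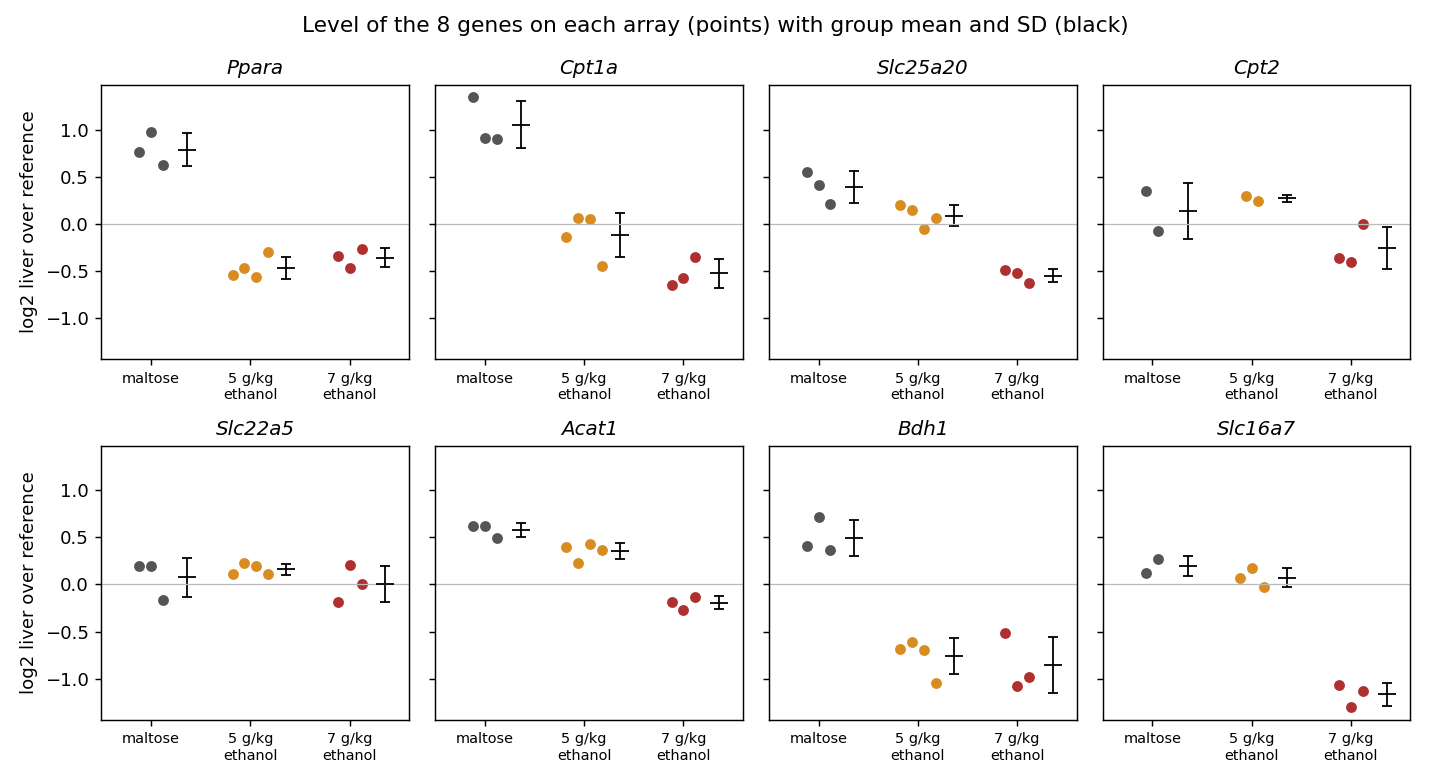
Level of each of the 8 genes on every array, as log2 of liver over reference signal, in maltose, 5 g/kg and 7 g/kg ethanol livers; coloured points are arrays and the black bar is the group mean with its SD. Ppara, Cpt1a and Bdh1 drop below all maltose arrays at both doses, Slc25a20, Acat1 and Slc16a7 are lowest at 7 g/kg, and Slc22a5 stays within one range. Cpt2 has 2, 2 and 3 points and Slc16a7 has 2, 3 and 3, because outlier-marked spots were left out.

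Ppara, the receptor itself, had log2 liver over reference levels of 0.76, 0.97 and 0.63 in maltose livers. At 5 g/kg the levels were −0.54, −0.47, −0.56 and −0.30, and at 7 g/kg they were −0.35, −0.47 and −0.27. Every ethanol liver lay below every maltose liver, and both doses overlapped with each other. The mean fell by 1.25 on the log2 scale at 5 g/kg (SE 0.111, limma adjusted p = 2.41e-05) and by 1.15 at 7 g/kg (SE 0.119, adjusted p = 3.53e-05), which left 41.9% and 45.2% of the maltose level. The difference of 7 from 5 g/kg was 0.11, with a 95% interval of −0.13 to 0.35 and an adjusted p of 0.819. The Ppara probe was printed as 10 spots on each array. The spread between those spots (SD of 0.034 to 0.130, on 8 to 10 spots after marked ones were dropped) was small beside the change. The 3 slides that held both maltose and 5 g/kg livers gave differences of −1.44 to −0.92, and the 2 slides with maltose and 7 g/kg livers gave −1.31 to −0.90.

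Of the other genes that work with the receptor, 22 were listed and 20 tested, and none passed at 5 g/kg with limma, where 3.79% of all genes passed. At an unadjusted p under 0.05, 5 were lower and 1 higher, and slide as a block gave 1 higher call (Lpin1, adjusted p = 0.0102). Single arrays moved this 0 to 1 as well: Lpin1 passed without 5 g/kg array 3 (adjusted p = 0.0352) and Rxrg without 7 g/kg array 2 (adjusted p = 0.0491). Without 5 g/kg array 1, Hnf4a, a hepatocyte nuclear receptor, passed through another of its probes (adjusted p = 0.047). At 7 g/kg 4 were lower and 1 higher, against 8.91% of all genes in either direction. The list's median change was −0.12 at both doses. Rxra, the main dimerisation partner in liver, stood at 0.12 and 0.36 in the 2 maltose livers with a usable spot, at −0.09, −0.16, −0.15 and −0.32 at 5 g/kg, and at −0.24, −0.36 and −0.15 at 7 g/kg. Its change was −0.42 at 5 g/kg (adjusted p = 0.0788), and at 7 g/kg it fell by 0.49 (SE 0.127, adjusted p = 0.0278). Rxrg, another retinoid X receptor, gave −0.38 at 5 g/kg (adjusted p = 0.0697), and it fell by 0.61 at the higher dose (adjusted p = 0.00369). Esrra, an orphan receptor that regulates mitochondrial genes, fell by 0.55 at 7 g/kg (adjusted p = 0.0275), and Nr0b2 (SHP), a corepressor, fell by 0.57 (adjusted p = 0.0397). Lpin1, a phosphatidate phosphatase that also acts as a coactivator, rose 2.37-fold at 7 g/kg (adjusted p = 0.00424). The PGC-1 coactivators did not pass: Ppargc1a gave −0.15 and −0.38 and Ppargc1b −0.33 and −0.32 at 5 and 7 g/kg. The count of 4 lower genes at 7 g/kg rested on single arrays. It was 1 without maltose array 1, 2 without maltose array 2, 1 without 7 g/kg array 1 and 2 without 7 g/kg array 2, and 1 with slide as a block. The Rxra call was lost without 7 g/kg array 1 (adjusted p = 0.0623) or 2 (0.0931). Without maltose array 1 or 3 its probe had too few values and another Rxra probe took its place, which did not pass (adjusted p = 0.202 and 0.471), and the mean over Rxra probes did not pass either (0.0646). The Nr0b2 call was lost without maltose array 1 (adjusted p = 0.17) or 2 (0.142), without 7 g/kg array 1 (0.0927) or 3 (0.151), and with slide as a block (0.0577). The Esrra call was lost without maltose array 1 (adjusted p = 0.139) or 2 (0.0691) and without 7 g/kg array 1 (0.0735) or 2 (0.117).

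PPAR alpha target genes outside the 8 numbered 44 on the list, of which 33 were tested. After 5 g/kg 6 were lower and 2 higher, against 3.79% of all genes in either direction, with a median change of −0.22. After 7 g/kg 20 were lower and 1 higher, against 8.91% of all genes in either direction, with a median of −0.82. Between the doses 11 were lower at 7 g/kg and 1 higher, against 1.56% of all genes in either direction. Cyp4a14 and Cyp4a31, microsomal fatty acid omega-hydroxylases, hardly differed from maltose at 5 g/kg in log2 level (−0.12 and −0.43, adjusted p = 0.841 and 0.416) and were 69.3-fold and 30.2-fold lower at 7 g/kg. Hadha and Hadhb, which encode the mitochondrial trifunctional protein, gave −0.22 and −0.16 after the lower dose and fell by 0.91 and 1.18 at 7 g/kg. Acot3, a peroxisomal acyl-CoA thioesterase, stood at 2.12, 1.27 and 1.31 in maltose livers and at −1.27, −1.21, −1.51 and −1.59 at 5 g/kg, where it was well above background on 2 of 4 arrays. Its fitted change at 5 g/kg was −2.96 (adjusted p = 8.34e-07), and −4.65 with scanner processed signals, so its size is uncertain. None of the 7 g/kg arrays had Acot3 well above background in the liver channel, and the gene was at least 8.13-fold lower than in maltose livers (the fold is taken against the dimmest probes well above background). Acot4 fell by 0.87 and 1.23 and the fatty aldehyde dehydrogenase gene Aldh3a2 by 0.70 and 1.27 at the same doses.

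Some targets went the other way. Ucp2, a mitochondrial carrier, rose by 0.74 at 5 g/kg (adjusted p = 0.00728) and by 0.62 at 7 g/kg (adjusted p = 0.0145) in log2 terms. As the mean of its probes it gave 0.37 and 0.25 and did not pass. The call at 7 g/kg was lost without maltose array 1 (adjusted p = 0.0509) or 3 (0.0688) or 7 g/kg array 1 (0.0514). Pdk4, the kinase that shuts off pyruvate dehydrogenase, rose 1.62-fold at 5 g/kg (adjusted p = 0.0121), and this call was lost without maltose array 2 (adjusted p = 0.0553) or 3 (0.0554). The Pdk4 change at 7 g/kg was 0.45 (adjusted p = 0.0777), which passed without 5 g/kg array 3 (adjusted p = 0.0293). It also passed with plain background subtraction (0.62, adjusted p = 0.0459), scanner processed signals (0.80, 0.0304) and the authors' series table (0.80, 0.029). In 19 of 23 alternative settings it stayed without a call. Fgf21, a hepatokine, gave 1.00 at 5 g/kg (adjusted p = 0.0541), which passed without 7 g/kg array 1 (0.0365) or 2 (0.0267), and 0.13 at 7 g/kg. Leaving out single arrays moved the 11 targets lower at 7 than at 5 g/kg to 7 without 5 g/kg array 2, 5 without 7 g/kg array 1, and 7 without 7 g/kg array 2 or 3. The 2 higher targets at 5 g/kg became 1 without maltose array 2 or 3, and the 1 higher target at 7 g/kg became 0 without maltose array 1 or 3 or 7 g/kg array 1 and 2 without 5 g/kg array 3. The 1 target higher at 7 than at 5 g/kg became 0 without 5 g/kg array 1 or 2 or 7 g/kg array 1 or 2.

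Slc22a5, the carnitine importer, stood at 0.19, 0.20 and −0.16 in maltose livers, at 0.11, 0.23, 0.19 and 0.11 at 5 g/kg, and at −0.19, 0.20 and 0.00 at 7 g/kg. The groups overlapped throughout, and none of the comparisons passed. The change was 0.08 at 5 g/kg, with a 95% interval of −0.17 to 0.34, and −0.07 at 7 g/kg, with an interval of −0.34 to 0.20. A second Slc22a5 probe, dimmer and not used in the gene's value, gave 0.05 and −0.31, also without a call.

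Cpt1a, the rate-setting step of the shuttle, stood at 1.34, 0.91 and 0.90 in maltose livers. At 5 g/kg its levels were −0.14, 0.06, 0.06 and −0.45, and at 7 g/kg they were −0.65, −0.58 and −0.35. No ethanol liver reached the lowest maltose liver, and the 7 g/kg livers overlapped with the lowest 5 g/kg liver. The level fell by 1.17 at 5 g/kg (SE 0.145, adjusted p = 0.000425) and by 1.58 at 7 g/kg (SE 0.155, adjusted p = 2.26e-05), to 44.4% and 33.5% of maltose. The step from 5 to 7 g/kg was −0.41, with a 95% interval of −0.72 to −0.09 that is not adjusted over genes and an adjusted p of 0.276. Like Ppara, Cpt1a was read from 10 spots of 1 probe. Their SD within an array was 0.026 to 0.158, on 7 to 10 spots after marked ones were dropped. With the marked spots kept, Cpt1a on 7 g/kg array 2 read 0.24 instead of −0.58. The change at 7 g/kg was then −1.19 and still passed, and the step from 5 to 7 g/kg was −0.04. Within slides the difference from maltose was −1.48 to −0.86 at 5 g/kg and −1.56 to −1.25 at 7 g/kg. A second Cpt1a probe was not tested because the scanner software marked its spot on 3 of 10 arrays.

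Slc25a20, the carrier that moves acylcarnitine inward, stood at 0.55, 0.41 and 0.21 in maltose livers, at 0.20, 0.15, −0.06 and 0.06 at 5 g/kg, and at −0.49, −0.53 and −0.63 at 7 g/kg. The 3 groups lay in the order of dose without overlap, although the gap between the lowest maltose and the highest 5 g/kg liver was 0.010. The change at 5 g/kg was −0.30 (95% interval −0.53 to −0.07, adjusted p = 0.166). At 7 g/kg the level fell by 0.94 (SE 0.115, adjusted p = 0.00014), to 52.2% of maltose, and it was lower than at 5 g/kg by 0.64 (SE 0.108, adjusted p = 0.00742).

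Cpt2, the inner membrane enzyme, was marked as an outlier on 3 arrays and kept 2, 2 and 3 values. They were 0.34 and −0.08 in maltose livers, 0.30 and 0.24 in the 5 g/kg livers, and −0.36, −0.41 and −0.01 in those given 7 g/kg. Maltose and 7 g/kg livers overlapped. The changes of 0.14 at 5 g/kg (95% interval −0.26 to 0.53) and −0.39 at 7 g/kg (−0.75 to −0.03, adjusted p = 0.199) did not pass. With the marked spots kept, the 7 g/kg change was −0.49 with an adjusted p of 0.0452, so the call for Cpt2 depends on those spots.

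**Figure D2:**
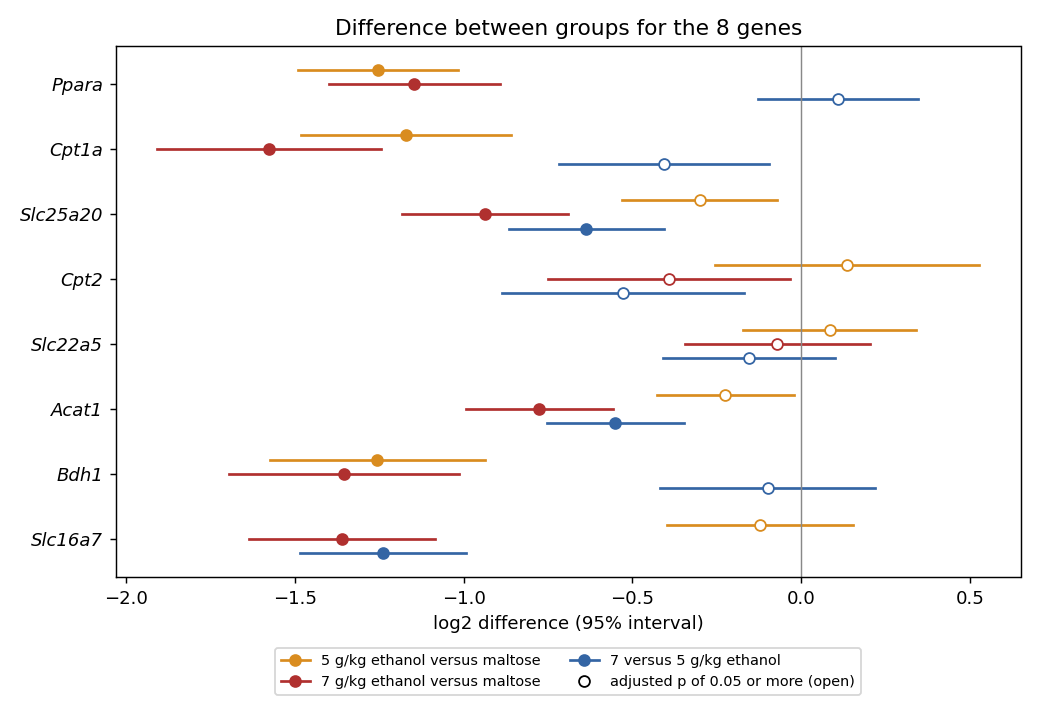
Log2 difference between groups for each of the 8 genes (horizontal axis), with 95% intervals not adjusted over genes; orange is 5 g/kg minus maltose, red 7 g/kg minus maltose and blue 7 minus 5 g/kg, and filled points have an adjusted p under 0.05. Ppara, Cpt1a and Bdh1 have filled orange and red points and open blue ones, while Slc25a20, Acat1 and Slc16a7 have open orange points and filled red and blue ones.

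Among 19 listed genes of carnitine synthesis, acyl transfer and malonyl-CoA control, 16 were tested. In the 5 g/kg livers 1 was lower and none higher, against 3.79% of all genes in either direction. At 7 g/kg 4 were lower and 2 higher, against 8.91% of all genes. The list medians were 0.01 and −0.02. Bbox1, the last enzyme of carnitine synthesis, fell by 0.51 at 5 g/kg (adjusted p = 0.0335) and by 0.58 at 7 g/kg (adjusted p = 0.0129). Aldh9a1, an earlier enzyme of that route, fell by 0.62 at 7 g/kg (adjusted p = 0.00462). Crat, which makes acetylcarnitine, stood at 0.94, 0.63 and −0.18 in maltose livers, at 0.17, 0.02, −0.15 and 0.00 at 5 g/kg, and at −0.91, −1.50 and −1.02 at 7 g/kg. It was 3.05-fold lower at 7 g/kg than with maltose (adjusted p = 0.000382) and 2.22-fold lower than at 5 g/kg (adjusted p = 0.0121).

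Malonyl-CoA is the natural inhibitor of Cpt1a. The 2 acetyl-CoA carboxylases that make it, Acaca and Acacb, rose by 0.58 and 0.67 at 7 g/kg in log2 terms (adjusted p = 0.0063 and 0.00665). The Acaca call was lost with scanner processed signals (0.50, adjusted p = 0.0542), and with Cy5 alone neither passed (0.46 and 0.58, adjusted p = 0.638 and 0.46). Their changes at 5 g/kg were 0.12 and 0.32, without a call. Mlycd, which degrades malonyl-CoA, fell by 0.43 at 7 g/kg with an adjusted p of 0.048. Prkaa2, a catalytic subunit of AMP-activated kinase, gave −0.31 at 5 g/kg (adjusted p = 0.0834) and 0.03 at 7 g/kg.

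Several of these calls lay near the threshold. The 1 lower gene at 5 g/kg was Bbox1, whose call was lost without maltose array 1 (adjusted p = 0.0815), 2 (0.155) or 3 (0.0563) and without 5 g/kg array 1 (0.0853) or 3 (0.0891), and at 7 g/kg without maltose array 2 (0.0647) or 7 g/kg array 2 (0.0628). The Mlycd call was lost in 17 of 24 alternative settings, with adjusted p of 0.204 and 0.139 without maltose array 1 or 2, 0.0611, 0.0651, 0.0578 and 0.0566 without 5 g/kg array 1, 2, 3 or 4, and 0.126 and 0.181 without 7 g/kg array 1 or 2. The Crat difference between doses was lost without 7 g/kg array 2 (adjusted p = 0.0613), and Crat at 5 g/kg passed without maltose array 3 (adjusted p = 0.0286). The 4 lower genes of this list at 7 g/kg became 2 without maltose array 2 or 7 g/kg array 2.

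Acat1, which condenses acetyl-CoA in the opening reaction of ketogenesis, stood at 0.62, 0.63 and 0.49 in maltose livers. The 5 g/kg livers gave 0.40, 0.23, 0.43 and 0.36, and the 7 g/kg livers gave −0.18, −0.27 and −0.13. The 3 groups did not overlap. The change at 5 g/kg was −0.23 (95% interval −0.43 to −0.02, adjusted p = 0.259). At 7 g/kg the level fell by 0.78 (SE 0.101, adjusted p = 0.000224), to 58.4% of maltose, and it was lower than at 5 g/kg by 0.55 (SE 0.0949, adjusted p = 0.0084).

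Bdh1, the enzyme that interconverts both ketone bodies, stood at 0.41, 0.72 and 0.37 in maltose livers. At 5 g/kg its levels were −0.69, −0.61, −0.70 and −1.05, and at 7 g/kg they were −0.52, −1.08 and −0.98. Every ethanol liver lay below every maltose liver, by at least 0.88, and the doses overlapped. The level fell by 1.26 at 5 g/kg (SE 0.149, adjusted p = 0.000297) and by 1.35 at 7 g/kg (SE 0.159, adjusted p = 0.000101), to 41.9% and 39.1% of maltose. The difference between the doses was −0.10, with a 95% interval of −0.42 to 0.22. Within slides, Bdh1 differed from maltose livers by −1.41 to −1.09 in the 5 g/kg group and by −1.35 to −1.23 in the 7 g/kg group.

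Of 10 listed genes of ketone body synthesis and use outside the 8, 8 were tested. None passed at 5 g/kg with limma, where 3.79% of all genes passed, nor at an unadjusted p under 0.05. At 7 g/kg 2 were lower, Oxct2a among them, and none was higher, against 8.91% of all genes in either direction. The medians were 0.00 and −0.02. Oxct2a, a form of the ketone body transferase known from testis, fell by 0.43 at 7 g/kg (adjusted p = 0.0268). That call was lost, which left 1 lower gene, without maltose array 1 (adjusted p = 0.0678) or 3 (0.11) and without 7 g/kg array 2 (0.0564) or 3 (0.0987). As the mean of its probes Oxct2a gave −0.26 and did not pass (adjusted p = 0.149). Hmgcs1, the cytosolic synthase of cholesterol synthesis, gave −0.46 and −0.06, and at 5 g/kg it passed without maltose array 1 (adjusted p = 0.0168). Bdh2, a cytosolic dehydrogenase, gave −0.22 and 0.03. Aacs, which activates acetoacetate in the cytosol, gave 0.03 and 0.65, and at 7 g/kg it passed without maltose array 2 (adjusted p = 0.0205).

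Slc16a7 had usable spots on 2, 3 and 3 arrays. It stood at 0.12 and 0.27 in maltose livers, at 0.07, 0.17 and −0.02 at 5 g/kg, and at −1.07, −1.30 and −1.13 at 7 g/kg. The 5 g/kg livers overlapped with maltose, and the 7 g/kg livers lay at least 1.05 below both. The change at 5 g/kg was −0.12 (95% interval −0.40 to 0.15, adjusted p = 0.737). At 7 g/kg the level fell by 1.36 (SE 0.127, adjusted p = 3.76e-05), to 38.9% of maltose, and it was lower than at 5 g/kg by 1.24 (SE 0.113, adjusted p = 0.000187). Kept in, the marked spots read 0.35 (maltose array 3) and 0.07 (5 g/kg array 4), inside or above the values of their groups.

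Of 12 other monocarboxylate transporters and chaperones, 11 were tested. In the 5 g/kg livers 1 rose and 1 fell, against 3.79% of all genes in either direction. At 7 g/kg 2 rose and 2 fell, against 8.91% of all genes. The list median was 0.17 at both doses. Slc16a6 (MCT7), known as a beta-hydroxybutyrate exporter of hepatocytes, stood at −1.69, −1.55 and −1.43 in maltose livers, at −0.33, −0.10, −0.28 and −0.52 at 5 g/kg, and at 0.15, 0.41 and 0.30 at 7 g/kg. The 3 groups did not overlap, and the order was opposite to that of Slc16a7. Slc16a6 rose 2.37-fold at 5 g/kg (adjusted p = 4.35e-05) and 3.58-fold at 7 g/kg (adjusted p = 8.86e-07), and it was 1.51-fold higher at 7 than at 5 g/kg (adjusted p = 0.0177). The call between doses was lost without 5 g/kg array 1 (adjusted p = 0.0508) and without 7 g/kg array 2 (0.0848) or 3 (0.0601), and with slide as a block (0.0561). As the mean of the Slc16a6 probes the step was 0.42 on the log2 scale and did not pass (adjusted p = 0.203). It did not pass with scanner processed signals (0.0824), the authors' series table (0.0754) or Cy5 alone (0.614) either.

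Slc16a1 (MCT1), the widespread lactate and ketone body transporter, gave 0.44 at 5 g/kg (adjusted p = 0.159) and rose 1.94-fold at 7 g/kg (adjusted p = 0.002). With slide as a block the 5 g/kg change also passed (adjusted p = 0.0314). Slc16a12, a creatine transporter, fell by 0.79 and 1.18, and its call at 5 g/kg was lost without maltose array 2 (adjusted p = 0.0611) or 3 (0.0687). Slc16a5 gave −0.39 at 5 g/kg and fell by 1.06 at 7 g/kg (adjusted p = 0.00736). Slc16a10, an aromatic amino acid transporter, gave 0.39 and 0.17 without a call.

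**Figure D3:**
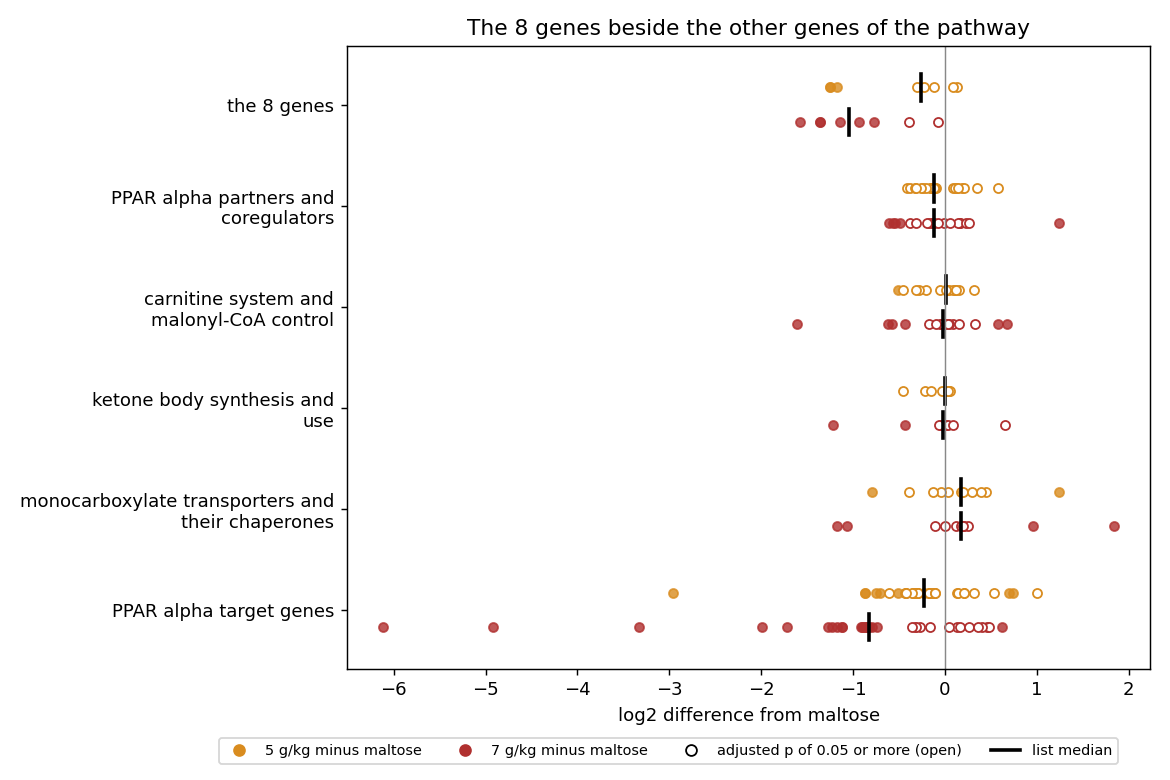
Log2 difference from maltose (horizontal axis) for the 8 genes and for the tested genes of the 5 lists around them, at 5 g/kg (orange) and 7 g/kg (red); filled points have an adjusted p under 0.05 and black ticks are list medians. The medians of the 8 genes (−0.26 and −1.04) and of the target genes (−0.22 and −0.82) lie lower at 7 g/kg, while those of the other 4 lists lie between −0.12 and 0.17.

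Between the doses, 3 of the 8 were lower at 7 than at 5 g/kg (Slc25a20, Acat1 and Slc16a7), against 0.884% of all genes, and 0 were higher, against 0.678%. Counted by arrays that do not overlap, 5 of the 8 were lower at 5 g/kg (7.71% of all genes), 6 at 7 g/kg (12.2%) and 4 at 7 against 5 g/kg (6.01%), the last including Cpt2. None of the 8 lay higher without overlap, against 9.12%, 13.1% and 4.94% of all genes. The median change of the 8 was −0.26, −1.04 and −0.47 in these comparisons. Slide as a block left the 3, 6 and 3 calls in place. It gave −1.22 for Ppara, −1.18 for Cpt1a and −1.23 for Bdh1 at 5 g/kg, and −0.86 for Slc25a20, −0.76 for Acat1 and −1.34 for Slc16a7 at 7 g/kg.

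Side by side, the genes called lower at 7 g/kg showed 2 patterns, and the difference between the patterns was not tested. In Ppara, Cpt1a and Bdh1 the change at 5 g/kg was 1.17 to 1.26 in size and the step to 7 g/kg did not pass. In Slc25a20, Acat1 and Slc16a7 the change at 5 g/kg was 0.12 to 0.30 in size and did not pass, and the step to 7 g/kg did. Within single arrays, the log2 level of Cpt1a minus that of Slc25a20, set to a mean of 0 in maltose livers, was −0.16 to 0.13 there, −1.17 to −0.55 at 5 g/kg and −0.82 to −0.39 at 7 g/kg. The same difference for Bdh1 minus Acat1 was −0.13 to 0.18 in maltose livers, −1.32 to −0.76 at 5 g/kg and −0.76 to −0.25 at 7 g/kg. In every ethanol liver both differences were lower than in any maltose liver. Each pair set a gene of the first pattern against a gene of the second. These differences therefore restate the changes above and are no separate support for 2 patterns. The split of the steps rests on the threshold, since the Cpt1a step was −0.41 and the Acat1 step −0.55. With marked spots kept, the Cpt1a step was −0.04.

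**Figure D4:**
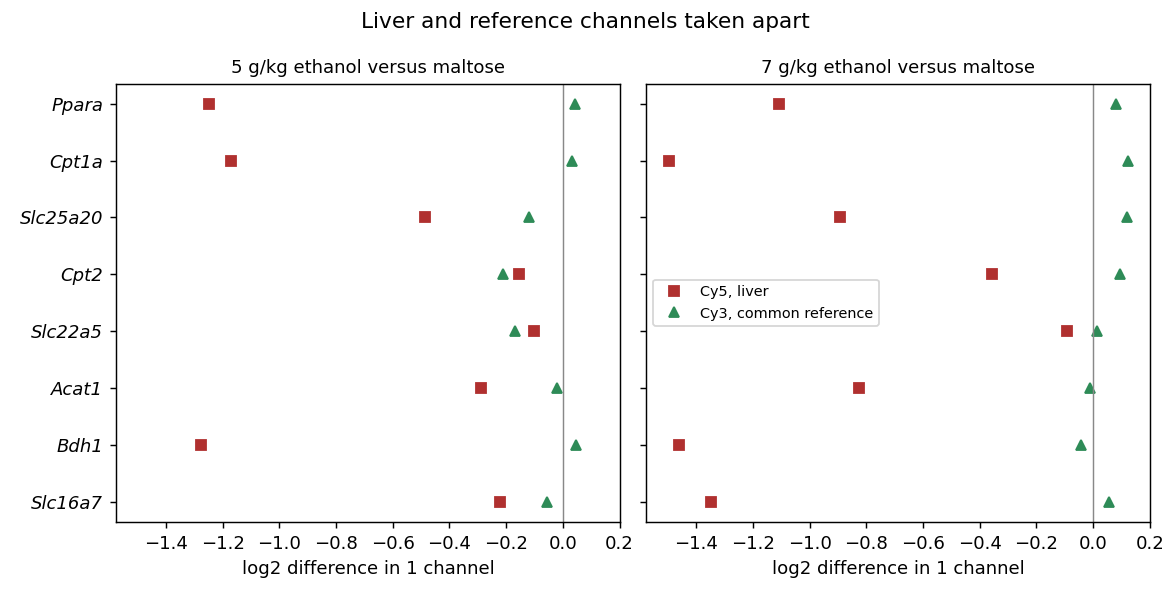
Log2 difference from maltose of the 8 genes in each dye channel taken alone after quantile normalization (horizontal axis), at 5 g/kg (left) and 7 g/kg (right); squares are the liver channel and triangles the common reference. The liver squares of Ppara, Cpt1a and Bdh1 lie at −1.50 to −1.11 while all reference triangles lie between −0.21 and 0.12.

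The 2 channels were also read apart, since a ratio moves with either. In the reference channel, which held the same RNA on every array, the 8 genes differed from maltose by −0.21 to 0.12, and none passed. Between 7 and 5 g/kg the reference channel differed more, by −0.09 (Bdh1) to 0.31 (Cpt2) and by 0.24 for Slc25a20, without a call. In the liver channel alone Ppara changed by −1.25 and −1.11, Cpt1a by −1.17 and −1.50 and Bdh1 by −1.28 and −1.46, and all 6 differences passed. Slc25a20 at 7 g/kg was −0.89 there, with an adjusted p of 0.0717, against −0.94 as a ratio. Of the 3 steps between the doses, Slc16a7 alone passed in the liver channel, while Slc25a20 (−0.41, against −0.64 as a ratio) and Acat1 (−0.54, against −0.55) did not (adjusted p = 0.9997 and 0.515).

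In a piece of liver, fewer cells of a type and less RNA per cell cannot be told apart, and some cell markers differed between groups. The marker counts that follow stand against 3.79% of all genes passing at 5 g/kg and 8.91% at 7 g/kg, in either direction. The mean log2 level of 5 tested hepatocyte markers was −0.04 to 0.19 in maltose livers, 0.46 to 0.83 at 5 g/kg and 0.60 to 0.88 at 7 g/kg. Fgb, an acute phase gene, passed as higher at both doses (by 1.22 and 2.64) and Ttr at 7 g/kg (by 0.69). The other 3 did not pass: at 5 and 7 g/kg Alb gave 0.19 and 0.08, Apoa1 0.41 and −0.16, and Apob 0.11 and −0.25. Of 7 pericentral markers, Oat was lower at 5 g/kg, and Oat, Cyp2e1 and Slc1a2 were lower and Cyp1a2 higher at 7 g/kg. Their mean was −0.11 to 0.10, −0.40 to −0.18 and −0.44 to −0.32 in the 3 groups, and Axin2 was well above background on no array. Of 5 periportal markers, Hal was lower at both doses, and at 7 g/kg Gls2 was lower and Cyp2f2 and Sds higher. Their mean was −0.16 to 0.28, −0.26 to 0.34 and −0.35 to 0.00, with overlap.

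Of 8 endothelial markers, 2 were higher at 5 g/kg and 3 at 7 g/kg, with means of −0.53 to −0.28, −0.19 to 0.00 and −0.10 to −0.05, and Lyve1 rose 2.43-fold and 3.29-fold. Of 7 neutrophil markers none passed at 5 g/kg with limma (2 were higher at an unadjusted p under 0.05), and S100a8 and S100a9 were higher at 7 g/kg, where the mean was 0.13 to 0.28 against −0.32 to −0.22 in maltose livers. Nkg7 was higher at both doses and Cd3e at 7 g/kg among 8 lymphocyte markers, with means of −0.24 to −0.12, −0.15 to 0.00 and −0.05 to 0.02. Of 8 stellate markers Dcn was higher at 5 g/kg, with means of −0.20 to 0.01, 0.06 to 0.17 and 0.10 to 0.18. Of 7 bile duct markers Spp1 was lower at 5 g/kg, with means of −0.04 to 0.01, −0.06 to 0.10 and −0.02 to 0.13. None of 6 Kupffer cell, 7 adipocyte or 5 exocrine pancreas markers passed at either dose with limma, and at an unadjusted p under 0.05 1 Kupffer cell marker was lower and 1 adipocyte marker higher at 7 g/kg. The part of cell makeup in the lower levels of the 8 genes was not tested.

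Among 13578 named genes with a value on all 10 arrays, those with a pattern most like Ppara included Mcm10 (a DNA replication factor) and Igfals (a subunit of the circulating IGF complex). Likeness was the root mean square log2 difference over the 10 arrays after each gene was set to a mean of 0 in maltose livers, and it was 0.185 and 0.214. Nearest to Cpt1a were Rilp (0.276), Cxcl12 (0.281) and Bdh1 (0.283). Nearest to Bdh1 were Adh4 (0.222), Ppara (0.241) and Keg1 (0.246). Bdh1 stood among the 3 genes nearest to Cpt1a, and Ppara among the 3 nearest to Bdh1. By rank, Bdh1 was 4th for Ppara and Cpt1a 8th for Bdh1, and Cpt1a was not among the 8 genes nearest to Ppara. Likeness was taken from the same values as the changes above. It therefore restates those changes and is no separate support that these genes move together.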

How the data were processed

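The 8 genes and the gene lists were chosen with earlier results of these data known. The deposited files hold, per the file headers, each spot's median intensity and that of its surroundings in Cy5 and Cy3 (Agilent Feature Extraction 11.5.1.1). The same software made the processed intensities and the deposited log10 ratio, after background subtraction and dye normalization, per the file headers. The values of the authors' series table were taken as log2 of liver over reference, because they rose by 3.32 to 3.34 per unit of log10 ratio. Its column medians were 0.062, 0.025 and 0.014 (maltose), −0.042, −0.010, −0.066 and 0.045 (5 g/kg) and 0.014, −0.073 and 0.076 (7 g/kg), and its centring is not given in the sources used here.

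Main values came from the median intensities, with normexp (offset 50) and loess within arrays, in limma 3.58.1 under R 4.3.3. Control spots and outlier-marked spots (2.42% to 5.83% per array) were left out and spots of a probe averaged. RefSeq accessions gave symbols to 24375 of 41174 probes (59.2%; GRCm38.p6 table). Probes well above background on at least 3 arrays, with at least 2 values per group, were kept, and the brightest probe stood for a gene. One moderated fit covered the 3 groups and all 10 arrays (7 residual degrees of freedom), with two-sided Benjamini-Hochberg adjustment over 26124 genes and a threshold of 0.05. Steps were checked on simulated data. The groups were spread over 4 slides.

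Named genes were the 8, 13 set genes, the 3 smallest p of each list at each dose and the 3 nearest patterns of Ppara, Cpt1a and Bdh1; a few of them are not reported here. Nr0b2, Hnf4a, Ucp2, Hadha, Hadhb, Slc16a5, Crot, Acsl5, Ehhadh, Acadm and the cell markers were named after their values were seen. Alternatives changed background correction, normalization, channel, source, filter, probe choice, moderation, blocks and threshold, and left out each array. The reference channel alone and the untested genes with marked spots kept were added after seeing the data.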

Additional observations from a re-analysis of the deposited data

How the results depend on the processing

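Of 558 values of the 8 genes under 24 alternatives, 554 kept their direction, where called, and their side of the threshold. The 3 that lost a call were Slc25a20 at 7 g/kg and Slc25a20 and Acat1 at 7 against 5 g/kg, all with Cy5 alone (−0.89, −0.41 and −0.54, against −0.94, −0.64 and −0.55 in the ratios), which left 1 of the 8 lower between the doses. The 1 that gained a call was Cpt2 at 7 g/kg with marked spots kept. Cpt2 and Slc16a7 could not be fitted under some left-out arrays, where a group held fewer than 2 values. No call of a gene named reversed. The count of all genes passing at 5 g/kg was 989, and 516 with scanner processed signals, 584 with the series table, 119 with Cy5 alone, 365 at an adjusted p under 0.01 and 461 to 1035 with 1 array left out (461, 624 and 488 without maltose array 1, 2 or 3). At 7 g/kg it was 2328, and 590 with Cy5 alone, 1172 at 0.01 and 1495 to 2334 with 1 array left out (1495 without maltose array 1). At 7 against 5 g/kg it was 408, and 114, 138, 46 and 139 under the same 4 settings and 209 to 429 with 1 array left out (262 and 230 without 5 g/kg array 1 or 2, 209 and 226 without 7 g/kg array 1 or 2). Median centring instead of loess raised the share of calls that were higher from 57.8% to 75.4% at 5 g/kg and from 51.9% to 66.7% at 7 g/kg. Same-numbered arrays of different groups had deviations that correlated at −0.21 to 0.21 over 9 pairs, and differently numbered ones at −0.32 to 0.24 over 24 pairs. The numbers were therefore not taken to pair the arrays. Arrays of different groups on the same slide correlated with a median of 0.18 over 8 pairs, against −0.03 over 25 pairs on other slides. The main fit had no term for slide. With the replicate number as a block, 927, 2313 and 283 genes and 3, 6 and 3 of the 8 genes passed in the 3 comparisons. The number of arrays limits the precision, and single-spot probes, 6 of the 8 genes, have no check within an array.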

Other observations

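Some listed genes had outlier marks on 4 to 10 arrays and so were not tested. With the marked spots kept, Acsl1, which activates long-chain fatty acids ahead of Cpt1a, changed by −0.81 at 5 g/kg and −1.46 at 7 g/kg (limma adjusted p = 0.0173 and 0.000182). Crot, the peroxisomal carnitine octanoyltransferase, changed by −0.73 and −1.08 (adjusted p = 0.0144 and 0.000677). Acsl5 gave 0.20 at 5 g/kg and rose by 0.99 at 7 g/kg (adjusted p = 0.000392). The PPAR alpha targets Ehhadh and Acadm, of peroxisomal and mitochondrial beta-oxidation, gave −0.08 and −0.05 at 5 g/kg and fell by 2.20 and 0.95 at 7 g/kg (adjusted p = 1.27e-06 and 7.92e-05). Angptl4, an inhibitor of lipoprotein lipase, gave 0.24 and −0.22, with no call at either dose. These values include readings that the scanner software set aside.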
